A study of Mus musculus with 4 samples.

Results

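Sox1, Sox2, Sox3, Sox21, Sox9, Sox4, Sox11 and Sox12 encode the Sox transcription factors that are best known from neural progenitors and young neurons. These 8 genes were chosen by name, with earlier results of these data known. All 8 were found by symbol among the 30637 genes of the deposited table. They were followed in 4 RNA-seq libraries, made from oligo(dT)-selected RNA of the telencephalon, the forebrain region that gives rise to the cortex. The embryos were of the C57BL/6 strain and were taken at embryonic day 13. Libraries Pd1CKO 1 and Pd1CKO 2 came from conditional knockouts of Pd1. Libraries control 1 and control 2 are labelled wild type, while the design text gives these mice as Pd1fl/fl, that is, with the floxed allele. The Cre line that drives the deletion, the cells it acts in, and whether several embryos were pooled are not given in the sources used here. Nothing says that the libraries came from separate litters, so p-values measure the spread between these samples, which may be technical. Libraries that share a number in the labels are called set 1 and set 2, and what the number stands for is not given.

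Sox proteins bind DNA through an HMG box and act together with partner factors. The SoxB1 proteins Sox1, Sox2 and Sox3 keep neural cells in the progenitor state, and in the cortex Sox2 is found in the radial glia of the ventricular zone. Sox21, of the SoxB2 group, acts as a repressor and opposes SoxB1 activity at the onset of neurogenesis. Sox9, a SoxE factor, is made in radial glia and is needed for the switch to glia. The SoxC proteins Sox4, Sox11 and Sox12 are activators that come up in intermediate progenitors and young neurons, where Sox4 and Sox11 promote genes of neuronal differentiation. Progenitors and young neurons lie side by side in the telencephalon at this stage, so the balance of SoxB1 and SoxC transcripts is one reading of its makeup. In RNA from whole tissue, fewer cells of a type and less RNA per cell cannot be told apart.

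Most of these genes moved together between the sets, as described below for their levels. A relation of promoter sequence to this set difference was not tested. The sequences just before the RefSeq start sites of Sox2, Sox4 and Sox11 are shown as description only. They stand for the most abundant SoxB1 gene, the SoxC gene that differed most between the sets, and the SoxC gene whose mean was higher in set 2. Each is the 250 bases upstream of the RefSeq start (build GRCm38.p6), written 5′ to 3′ on the strand of the gene. Capitals mark the letters of a CCAAT box, CCAAT or its reverse complement ATTGG. The windows are chr3:34649745-34649994 on the plus strand for Sox2, chr13:28953700-28953949 on the minus strand for Sox4 and chr12:27342719-27342968 on the minus strand for Sox11. The RefSeq starts differ from the gene coordinates given below. The Sox2 and Sox11 windows lie apart from the gene, and the Sox4 window reaches into it.
Sox2: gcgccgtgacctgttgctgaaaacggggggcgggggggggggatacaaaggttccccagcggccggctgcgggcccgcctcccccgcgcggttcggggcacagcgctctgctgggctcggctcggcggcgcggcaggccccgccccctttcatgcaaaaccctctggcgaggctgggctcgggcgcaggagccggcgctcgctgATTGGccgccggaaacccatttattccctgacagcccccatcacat
Sox4: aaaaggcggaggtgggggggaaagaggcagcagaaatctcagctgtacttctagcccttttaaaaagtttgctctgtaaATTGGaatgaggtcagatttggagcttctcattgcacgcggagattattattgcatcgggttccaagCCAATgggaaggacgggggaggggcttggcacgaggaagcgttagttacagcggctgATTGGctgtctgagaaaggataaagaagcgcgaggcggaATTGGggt
Sox11: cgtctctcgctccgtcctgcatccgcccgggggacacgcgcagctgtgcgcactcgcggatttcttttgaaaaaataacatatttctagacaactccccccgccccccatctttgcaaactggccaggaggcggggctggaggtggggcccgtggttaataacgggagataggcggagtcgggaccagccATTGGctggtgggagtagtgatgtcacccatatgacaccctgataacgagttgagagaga

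Of the 8 genes, 6 had an entry among the RefSeq promoters, and Sox3 and Sox9 had none. A CCAAT box was present in the windows of 5 of these 6 genes, against 33.8% of the 32851 windows in the table. Sox4 held 4 of them and Sox2, Sox11, Sox1 and Sox12 held 1 each. The start of the match lay 46 bases before the RefSeq start in Sox2 and 60 bases before it in Sox11. The octamer ATGCAAAT, the letters bound by Pou factors, was found in 1 of the 6 windows, that of Sox12, where it overlaps an E-box, and in 1.60% of all windows. The E-box letters CANNTG stood in 3 of the 6 windows, in Sox4, Sox11 and Sox12, against 66.2% of all windows. The Sox core AACAAT and the RBPJ letters GTGGGAA were found in 0 of the 6, against 9.42% and 5.42% of all windows, each motif having been searched on both strands. The GC content of the window was 72% for Sox2, 50.8% for Sox4 and 58.0% for Sox11, beside a median of 52.4% over all windows. A match describes letters and not a bound site. The Sox1 window lies mostly inside the gene coordinates given below. The windows of Sox4 and Sox12 reach into the gene, and the Sox4 match 8 bases before the RefSeq start lies inside it.

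The labelled tissue was checked first. The telencephalon genes Emx1, Emx2, Lhx2, Tbr1, Dlx1, Dlx2 and Neurod6 were all above 10 FPKM in every library. Between the sets 1 of these was higher and 5 were lower in set 2, against 16.5% and 18.5% of all tested genes (limma, adjusted p of 0.05). Pdcd1, the gene of PD-1, as which Pd1 was read, was listed at 0 in Pd1CKO 1 and Pd1CKO 2, and at 0 in control 1 and 0.416 FPKM in control 2, where this was 13 fragments. A count of 3 fragments would be 0.0830 FPKM in Pd1CKO 1, 0.0859 in Pd1CKO 2 and 0.0837 in control 1, so Pdcd1 did not check the genotype labels. FPKM, the unit of the deposited values, is fragments per kilobase of exon, scaled to the size of the library, and the values imply 16200000 to 18740000 fragments per library. At that depth every member was well above the counting floor. The fewest fragments behind a member's value were 356 in Pd1CKO 2 and 322 in control 2, both for Sox3, and the most were 42358 in Pd1CKO 2 and 40092 in control 2, for Sox11.

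The members are protein-coding genes on 8 chromosomes (mm10). Of the SoxB1 genes, Sox1 (ENSMUSG00000096014) lies at chr8:12395295-12400126 on the plus strand, Sox2 (ENSMUSG00000074637) at chr3:34650405-34652461 on the plus strand and Sox3 (ENSMUSG00000045179) at chrX:60891366-60893430 on the minus strand. Sox21 (ENSMUSG00000061517) lies at chr14:118233232-118237030 on the minus strand and Sox9 (ENSMUSG00000000567) at chr11:112782224-112787760 on the plus strand. The SoxC genes are all on the minus strand, Sox4 (ENSMUSG00000076431) at chr13:28948919-28953713, Sox11 (ENSMUSG00000063632) at chr12:27334264-27342574 and Sox12 (ENSMUSG00000051817) at chr2:152393611-152398063.

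Sox11 was the most abundant member in each of the 4 libraries, and the order below it differed between the sets. FPKM is scaled by length, but ratios between these libraries still varied with length and GC content, as given below. Levels of different genes are set side by side with that limit. In set 2 the order was Sox11, Sox12, Sox2, Sox4, Sox1, Sox9, Sox3 and Sox21, with set means of 289.7, 63.5, 51.9, 31.9, 20.4, 17.4, 9.57 and 8.51 FPKM (n = 2 libraries). In set 1 it was Sox11, Sox4, Sox2, Sox12, Sox3, Sox1, Sox9 and Sox21, with means of 234.6, 161, 146, 99.4, 80.5, 40.4, 36.3 and 19.0 FPKM (n = 2). The ranges of neighbours in the order did not overlap in either set. Sox3 was thus next to last in set 2 and the fifth in set 1, and Sox4 was the fourth in set 2 and the second in set 1.

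**Figure D1:**
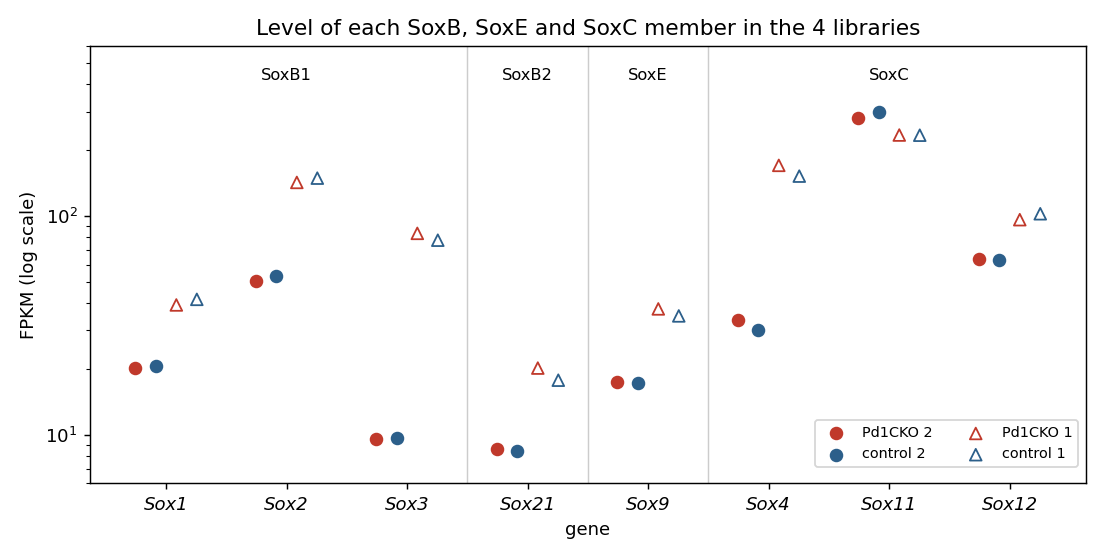
The plot gives the FPKM of each member (log axis) in the 4 libraries, red for Pd1CKO and blue for control, filled circles for set 2 and open triangles for set 1. Points of the same set lie together for each gene, and set 2 lies below set 1 for every gene except Sox11.

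The comparison of Pd1CKO with control asked whether the knockout shifts the factors of progenitors or of neurons. None of the 8 members passed at an adjusted p of 0.05 (limma on log2(FPKM + 1), over genes that averaged 1 FPKM or more), and 0 of the 13927 genes tested passed (0% higher and 0% lower), with 32 higher and 15 lower at an unadjusted p under 0.05. The count was also 0 with limma-voom, run on fragment numbers worked out from the FPKM. The adjusted p was 0.9998 for each member in limma. Genotype was the only term here, so the set difference counted as spread within each group and left the fit little power. With the set as a second term no member passed either, with an adjusted p of 0.959 for Sox4 in limma. For all 8 members the ranges of the Pd1CKO and control libraries overlapped. Each group holds a library of each set, so this follows where the sets differ more than the genotypes, and it cannot decide on a genotype difference. Among all genes tested, both Pd1CKO libraries lay above both controls in 8.37% and below both in 6.14%. Within a set, differences were at most 1.14-fold. The fold of Pd1CKO over control was therefore also read within each set, with exact 95% intervals (Clopper-Pearson) that cover counting error alone and not the spread between embryos.

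Among the SoxB1 genes, Sox2, the core factor of neural stem cells, stood at 143 FPKM in Pd1CKO 1 and 50.5 in Pd1CKO 2, against 149 in control 1 and 53.3 in control 2. The Pd1CKO value was below control in both sets, with folds of 0.956 (0.921 to 0.992) in set 1 and 0.948 (0.888 to 1.01) in set 2. The pooled log2 fold change was -0.07 ± 0.73 (SE, n = 2 each). Sox1, which overlaps with Sox2 in function and is the SoxB1 gene confined to neural tissue early on, had 39.2 FPKM in Pd1CKO 1 and 20.3 in Pd1CKO 2, against 41.6 in control 1 and 20.6 in control 2. Its folds were 0.943 (0.9002 to 0.987) in set 1 and 0.986 (0.921 to 1.06) in set 2. Sox3, the X-linked SoxB1 gene, had 83.4 FPKM in Pd1CKO 1 and 9.52 in Pd1CKO 2, against 77.6 in control 1 and 9.63 in control 2, so the sign differed between the sets. Its folds were 1.07 (1.02 to 1.13) in set 1 and 0.989 (0.848 to 1.15) in set 2. Because Sox3 is X-linked, Xist is given beside it. Xist, which coats the silenced X, had 61.2 FPKM in Pd1CKO 1 and 0.00308 in Pd1CKO 2, against 34.7 in control 1 and 54.0 in control 2. The part of X dosage in the Sox3 values was not tested.

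Sox21, the SoxB2 repressor, had 20.2 FPKM in Pd1CKO 1 and 8.58 in Pd1CKO 2, against 17.8 in control 1 and 8.45 in control 2. It was the member with the largest fold in set 1, 1.14 (1.05 to 1.23), while in set 2 the fold was 1.02 (0.901 to 1.14). Sox9, of the radial glia and later of astrocytes, had 37.6 FPKM in Pd1CKO 1 and 17.5 in Pd1CKO 2, against 34.9 in control 1 and 17.3 in control 2. Its folds were 1.08 (1.02 to 1.13) in set 1 and 1.01 (0.934 to 1.096) in set 2.

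Among the SoxC genes, Sox4, which acts in intermediate progenitors and young neurons, had 171 FPKM in Pd1CKO 1 and 33.6 in Pd1CKO 2, against 152 in control 1 and 30.3 in control 2. Its counting interval lay above 1 in both sets, with folds of 1.12 (1.09 to 1.15) in set 1 and 1.11 (1.05 to 1.17) in set 2, and the pooled log2 fold change was 0.15 ± 1.12 (SE). Sox11, the main SoxC factor of young neurons by level, had 235 FPKM in Pd1CKO 1 and 282 in Pd1CKO 2, against 234 in control 1 and 298 in control 2. Its folds were 1.002 (0.987 to 1.017) in set 1 and 0.945 (0.932 to 0.958) in set 2. Sox12, the SoxC member with the weakest activity of its own, had 96.3 FPKM in Pd1CKO 1 and 63.9 in Pd1CKO 2, against 102 in control 1 and 63.0 in control 2. Its folds were 0.940 (0.911 to 0.969) in set 1 and 1.01 (0.974 to 1.06) in set 2.

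Taking the 8 members by direction, Sox21, Sox9 and Sox4 were above control in both sets, and Sox1 and Sox2 were below control in both. These are 3 and 2 of 8, against 28.2% and 23.5% of the genes tested, so neither count stood far from the background. The counting interval was apart from 1 for 7 of 8 members in set 1 and 2 of 8 in set 2, where the share of all genes was 55.3% and 20.7%. It lay above 1 in both sets for Sox4 alone, 1 of 8, against 5.0% of the genes, and below 1 in both sets for 0 of 8, against 2.72%. The median log2 ratio of the members was 0.05 in set 1 and 0.00 in set 2, and over all tested genes it was 0.03 and 0.00. With median-ratio scaling the median of the members in set 1 was -0.02. After the correction for GC content and length described below, it was 0.05. The counting intervals were not recomputed with median-ratio scaling, which lowered the set 1 median. The counts of intervals apart from 1, in set 1 and in both sets, thus hold for the deposited scale only.

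**Figure D2:**
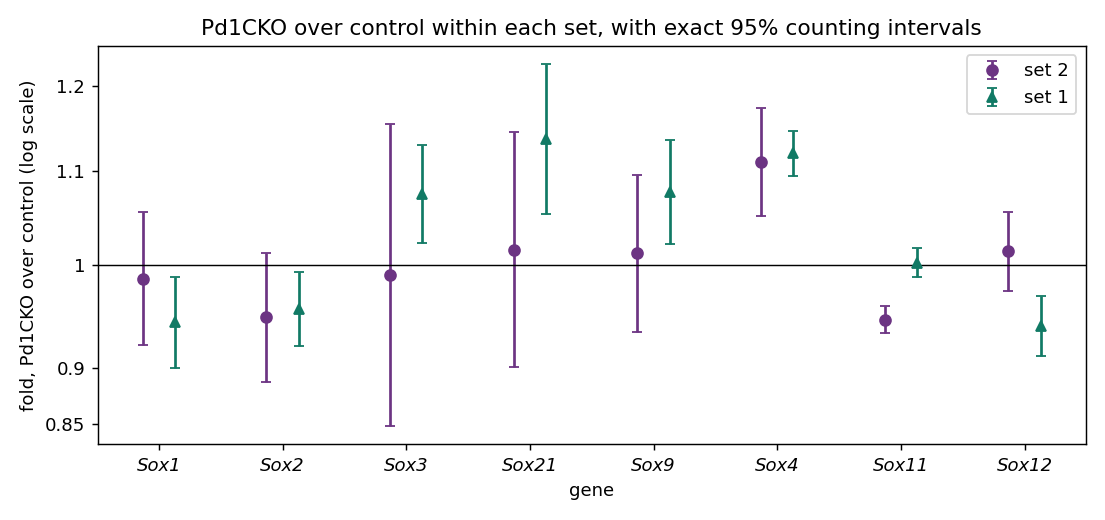
The plot gives the fold of Pd1CKO over control for each member (log axis), circles for set 2 and triangles for set 1, with exact 95% counting intervals. Sox4 is the member whose intervals lie above 1 in both sets, and Sox11 differs from 1 in set 2 with a fold of 0.945.

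The difference between the sets was much larger than that between the genotypes. In set 2, 7 of the 8 members were lower than in set 1 at an adjusted p of 0.05 (limma), which were Sox1, Sox2, Sox3, Sox21, Sox9, Sox4 and Sox12, where 18.5% of the 13927 genes tested were lower. None was higher, against 16.5% of the genes. The median log2 fold change of set 2 over set 1 was -1.04 for the members, against 0.03 for all tested genes. Both genotypes showed it. This comparison sets library number against library number, so it describes these libraries and not a condition of the study.

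Sox3 had the largest difference of the members on the deposited scale, though not after the correction for GC content and length given below (-1.76, against -2.35 for Sox4). It had 9.52 FPKM in Pd1CKO 2 and 9.63 in control 2, against 83.4 in Pd1CKO 1 and 77.6 in control 1. Its mean in set 2 was 0.119 of that in set 1, the log2 fold change was -2.94 ± 0.09 (SE), and the adjusted p in limma was 0.000233. Of all genes tested, 0.352% had a lower value. Sox2 was at 0.356 of its level in set 1, with a log2 fold change of -1.47 ± 0.09 and an adjusted p of 0.000784 in limma. Sox1 was at 0.506 of its level in set 1, with a log2 fold change of -0.95 ± 0.08 and an adjusted p of 0.00181 in limma. The ratio of set 2 to set 1 thus ran from 0.119 for Sox3 to 0.506 for Sox1 among the SoxB1 genes. Sox21 and Sox9 had values close to that of Sox1, with log2 fold changes of -1.07 ± 0.10 and -1.02 ± 0.09 (limma adjusted p = 0.0021 and 0.0017).

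Of the SoxC genes, Sox4 and Sox12 were lower in set 2 and Sox11 was not called. Sox4 had 33.6 FPKM in Pd1CKO 2 and 30.3 in control 2, against 171 in Pd1CKO 1 and 152 in control 1, a log2 fold change of -2.30 ± 0.10 (limma adjusted p = 0.000453), and 0.740% of genes had a lower value. Sox12 was at 0.639 of its level in set 1, with a log2 fold change of -0.64 ± 0.08 (limma adjusted p = 0.00499). Sox11 was the member with the higher mean in set 2, 289.7 ± 11.5 FPKM against 234.6 ± 0.308 (SD, n = 2 each). Its log2 fold change was 0.30 ± 0.09, and its adjusted p of 0.0505 in limma just missed the threshold. The Sox11 call turned with the setting, passing with a pseudocount of 0.1 (0.0487), a filter at a mean of 5 FPKM (0.0437) and limma-voom (0.0263), and missing with a pseudocount of 0.5 (0.0501), no filter (0.139), genotype as a second term (0.112), median-ratio scaling (0.115) and after correction for GC content and length (0.429, log2 fold change 0.10). It also passed without control 1 (0.0231) or Pd1CKO 1 (0.0208), and missed without control 2 (0.502) or Pd1CKO 2 (0.362).

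The summed level of the SoxB1 genes was 80.3 FPKM in Pd1CKO 2 and 83.5 in control 2, against 265 in Pd1CKO 1 and 268 in control 1. The summed SoxC level was 379 FPKM in Pd1CKO 2 and 391 in control 2, against 502 in Pd1CKO 1 and 489 in control 1. The ratio of SoxC to SoxB1 was accordingly 4.72 in Pd1CKO 2 and 4.68 in control 2, against 1.89 in Pd1CKO 1 and 1.82 in control 1. The difference between the sets was smaller with Sox11 and Sox2, the most abundant gene of each class, left out. The ratio was then 3.27 in Pd1CKO 2 and 3.09 in control 2, against 2.18 in Pd1CKO 1 and 2.14 in control 1. With geometric means in place of sums it was 3.96 in Pd1CKO 2 and 3.78 in control 2, against 2.02 in Pd1CKO 1 and 1.97 in control 1. Pd1CKO was above control within each set in all of these, by less than the sets differed. The ratios were not recomputed after the correction for GC content and length given below.

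The makeup of each class differed between the sets as well. Sox3 gave 11.9% of the SoxB1 sum in Pd1CKO 2 and 11.5% in control 2, against 31.4% in Pd1CKO 1 and 28.9% in control 1. Sox2 gave the largest share of the SoxB1 sum in every library, 53.8% to 63.8%. Sox4 gave 8.87% of the SoxC sum in Pd1CKO 2 and 7.74% in control 2, against 34.0% in Pd1CKO 1 and 31.1% in control 1. Sox11 gave 74.3% in Pd1CKO 2 and 76.1% in control 2, against 46.8% in Pd1CKO 1 and 47.9% in control 1. Sox12 gave 16.9% in Pd1CKO 2 and 16.1% in control 2, against 19.2% in Pd1CKO 1 and 20.95% in control 1.

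**Figure D3:**
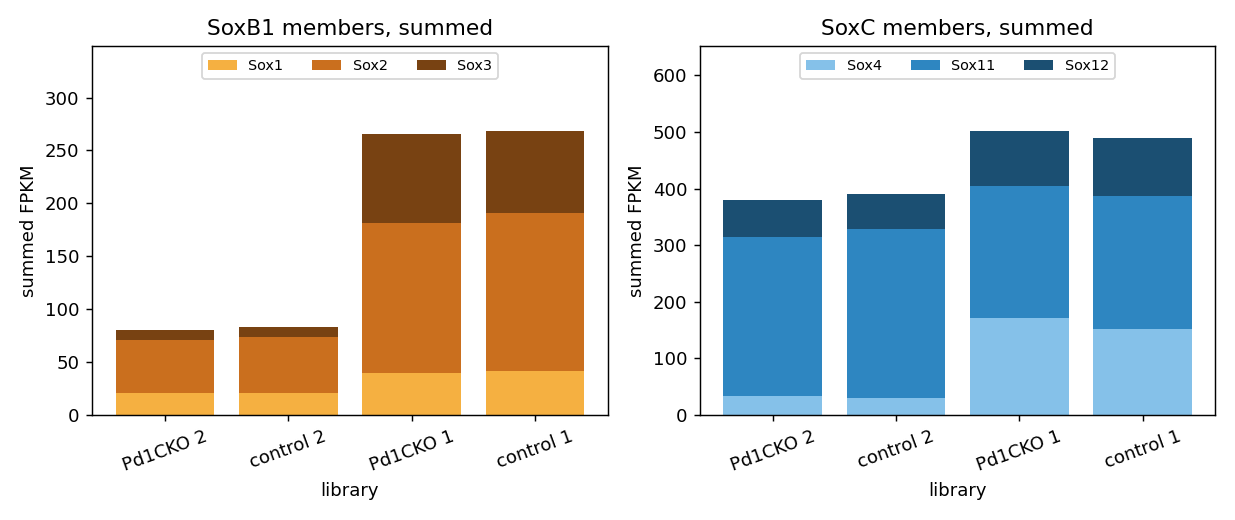
The bars give FPKM summed over the SoxB1 genes (left) and the SoxC genes (right) in each library, with a colour for each gene. The SoxB1 sum is 80.3 and 83.5 FPKM in set 2 against 265 and 268 in set 1, and the Sox4 part of the SoxC bar is small in set 2.

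The members share features that the choice by name did not use. In Gencode M21, 7 of the 8 have 1 exon block, and Sox9, with 3, is the exception. Among protein-coding genes tested, 349 had 1 exon block, of which 41% were lower and 10.9% higher in set 2 (limma, adjusted p of 0.05), with a median log2 fold change of -0.27. For the 11429 with more blocks the shares were 18.2% and 17.9%, and the median was 0.04. The GC content of the longest transcript was 66.4% for Sox3, 59.9% for Sox12, 58.3% for Sox21, 56.9% for Sox1, 51.1% for Sox4, 50.5% for Sox2, 49.3% for Sox9 and 46.5% for Sox11. The drop did not follow this order throughout, since Sox12 had the smallest log2 fold change of the 7 called members (-0.64) and Sox4 the second largest (-2.30).

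Across 13908 genes, the log2 fold change of set 2 over set 1 had a Spearman correlation of -0.28 with GC content and 0.29 with length. For the log2 ratio of Pd1CKO over control, the correlations were -0.33 and 0.30 within set 1, and -0.06 and 0.02 within set 2. The folds and counting intervals within set 1 given above were not corrected for this. Genes are not independent replicates, and they share the 4 libraries. The median log2 fold change was -1.60 for the 67 genes from 65% to 70% GC, where Sox3 lies, and 0.03 for the 3569 genes from 50% to 55%, where Sox2 and Sox4 lie. After a loess correction of each library for GC content and length, the log2 fold change was -1.76 for Sox3, -0.30 for Sox12, -0.79 for Sox21 and -0.82 for Sox1. It was -1.33 for Sox2, -1.06 for Sox9 and -2.35 for Sox4. All 7 still passed in limma, Sox12 with the largest adjusted p (0.0221). The values of Sox3 and Sox12 thus moved by over 1.5 times with this correction, and that of Sox4 hardly moved.

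**Figure D4:**
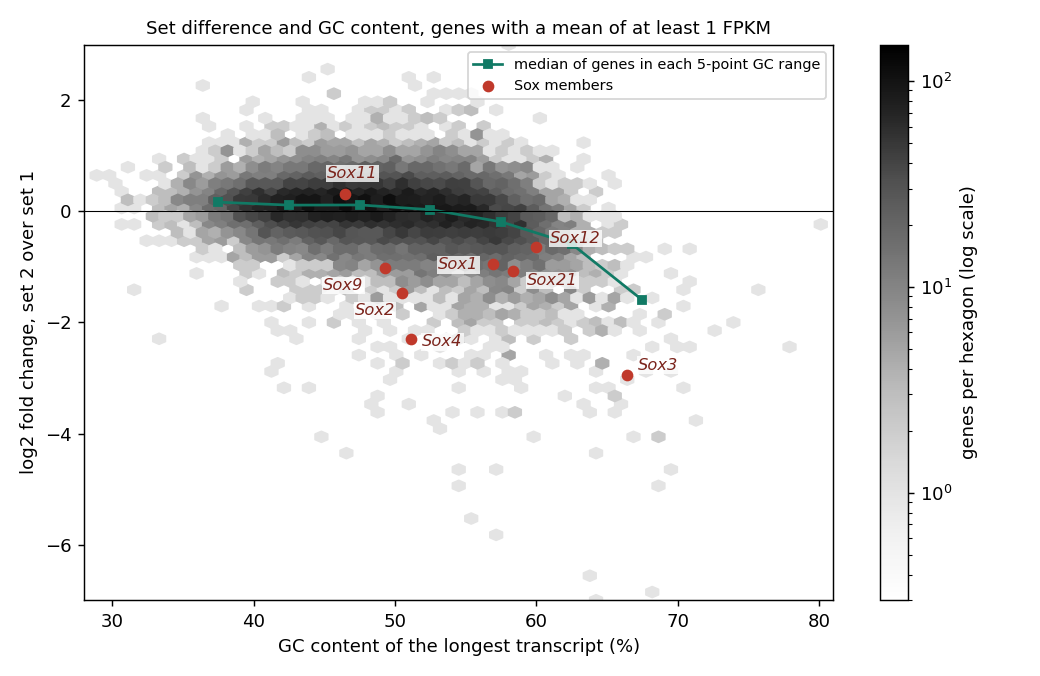
The plot sets the log2 fold change of set 2 over set 1 against transcript GC content for the genes that entered the test, as hexagons shaded by gene number, with the median of each GC range in green and the members in red. Sox3, Sox12, Sox21 and Sox1 lie where the median of all genes is below 0. Sox4, Sox2 and Sox9 lie well under the median of genes of their GC content.

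Transcripts that overlap a member were examined, since the counting may have split fragments between them and whether it used strand is not given. Sox2 lies in an intron of Sox2ot, a long non-coding RNA on the same strand, and Sox1 in an intron of Sox1ot, with 0 exon bases shared in either case. Sox2ot had 5.46 FPKM in Pd1CKO 2 and 5.35 in control 2, against 5.36 in Pd1CKO 1 and 5.94 in control 1. Sox1ot had 16.9 FPKM in Pd1CKO 2 and 15.2 in control 2, against 15.5 in Pd1CKO 1 and 14.4 in control 1. Their log2 fold changes of set 2 over set 1 were -0.05 and 0.10 (limma adjusted p = 0.715 and 0.484), beside -1.47 for Sox2 and -0.95 for Sox1. The difference between host and member was not tested. On the opposite strand, Gm26735 overlaps 54.6% of the exon of Sox4 and Gm4675 overlaps 18.8% of that of Sox21. Gm26735 was at most 0.0233 FPKM and Gm4675 at most 0.720 FPKM in any library. Without stranded counting such partners cannot be told apart, so the levels of Sox4 and Sox21 are uncertain to that extent. A microRNA gene, Gm25239, covers 86 bases of the Sox1 exon.

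Of 11 other Sox genes, 7 reached a mean of 1 FPKM, and none of them passed for Pd1CKO against control in limma. Between the sets 1 was higher and 3 were lower in set 2, against 16.5% and 18.5% of all tested genes. The higher one was Sox5, a SoxD factor of deep-layer cortical neurons, with 16.9 FPKM in Pd1CKO 2 and 15.8 in control 2, against 7.41 in Pd1CKO 1 and 5.59 in control 1. The endothelial SoxF gene Sox18 had 1.43 FPKM in Pd1CKO 2 and 1.18 in control 2, against 8.80 in Pd1CKO 1 and 10.2 in control 1. Sox17, also of SoxF, and the SoxD gene Sox13 were lower, with log2 fold changes of -1.27 and -0.63. The remaining 3 tested genes did not pass, with log2 fold changes of 0.11 for Sox6, -0.06 for Sox8 and -0.49 for Sox7. Sox10, of oligodendrocyte precursors, was at 0.560 to 1.104 FPKM, and Sox14, Sox15 and Sox30 were below 1 FPKM in each library.

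The list of 14 progenitor genes linked with SoxB1 factors holds targets, partners and neighbours of these factors in radial glia. None passed for Pd1CKO against control in limma, with 8 of 14 above control in set 1 and 6 of 14 in set 2, and medians of 0.08 and -0.01. In set 2, 10 of 14 were lower than in set 1 and 2 were higher, against 18.5% and 16.5% of all tested genes. The median log2 fold change was -0.59, against 0.03 for all tested genes. Hes5, a Notch effector that holds progenitors undifferentiated, had 7.90 FPKM in Pd1CKO 2 and 9.51 in control 2, against 46.6 in Pd1CKO 1 and 68.2 in control 1. Hes1, another effector of Notch, had 6.37 FPKM in Pd1CKO 2 and 6.40 in control 2, against 28.8 in Pd1CKO 1 and 23.3 in control 1. The higher genes were the lipid carrier gene Fabp7 and Pou3f2, which encodes a Pou partner of Sox2, with log2 fold changes of 0.37 and 0.49, so the list did not move as a block. Of the genes with the smallest p for genotype, Pou3f3 had log2 ratios of 0.29 in set 1 and 0.05 in set 2, Notch1 had 0.23 and 0.03, Gli3 had 0.55 and 0.00, and Pou3f4 had -0.09 and 0.26.

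The list of 12 neuronal genes linked with SoxC factors had a median of the opposite sign between the sets, a log2 fold change of 0.43. In set 2, 5 were higher and 1 was lower, against 16.5% and 18.5% of all tested genes. Mapt, the gene of the axonal protein tau, had 173 FPKM in Pd1CKO 2 and 176 in control 2, against 69.6 in Pd1CKO 1 and 79.2 in control 1. Dcx, the doublecortin gene of migrating neurons, had a log2 fold change of 1.21. The gene that fell was Tead2, a SoxC target that is also expressed in progenitors, with 28.2 FPKM in Pd1CKO 2 and 26.7 in control 2, against 74.1 in Pd1CKO 1 and 79.3 in control 1. The other 6 did not pass. For genotype, 3 of 12 were above control in set 1 and 5 of 12 in set 2, with medians of -0.09 and -0.03, and none passed in limma. The 4 genes with the smallest p were Ina, with log2 ratios of -0.34 in set 1 and -0.12 in set 2, Tubb3, with -0.60 and -0.02, Prox1, with -0.09 and -0.23, and Fezf2, with 0.32 and -0.03.

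Of 12 gliogenic genes linked with Sox9, 10 were tested, and Aqp4 and Gfap, of mature astrocytes, lay below the filter. In set 2, 4 were higher and 2 lower, against 16.5% and 18.5% of all tested genes, so the lower count was near that share. The median log2 fold change was 0.36, while Sox9 itself was lower. Aldh1l1, an astrocyte and progenitor enzyme gene, had 9.27 FPKM in Pd1CKO 2 and 9.02 in control 2, against 2.04 in both Pd1CKO 1 and control 1. Olig2, a factor of ventral progenitors and oligodendrocyte precursors, had 6.16 FPKM in Pd1CKO 2 and 6.38 in control 2, against 17.1 in Pd1CKO 1 and 27.1 in control 1. For genotype none passed in limma, with medians of 0.31 in set 1 and -0.04 in set 2. Nfia, a factor of glial onset, had log2 ratios of 0.48 in set 1 and -0.08 in set 2, Slc1a3 had 0.35 and 0.02, Hopx had 0.28 and 0.16, and Olig1 had -0.98 and -0.07.

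**Figure D5:**
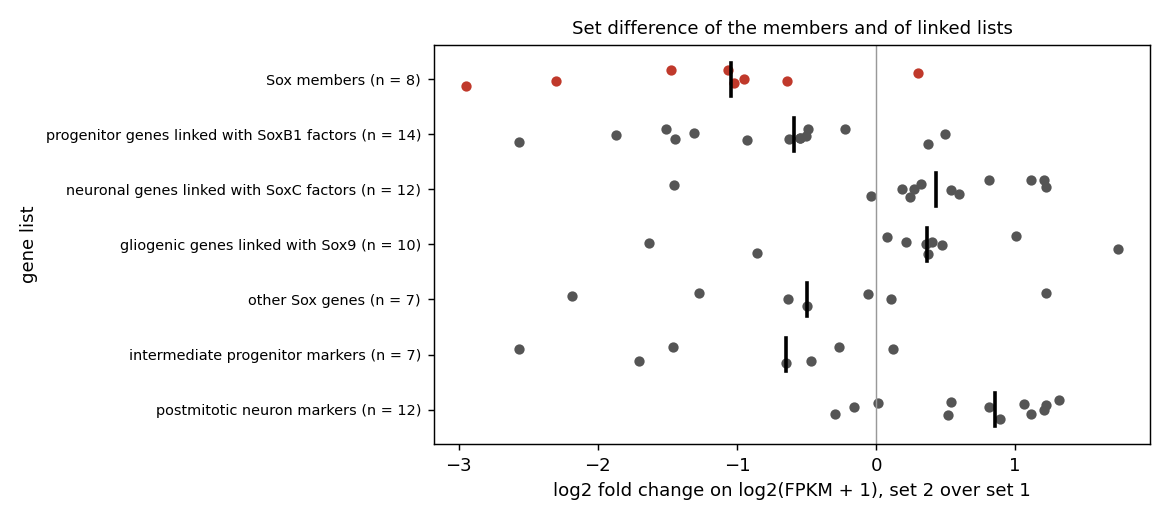
Each point is a tested gene, placed by its log2 fold change of set 2 over set 1 on the log2(FPKM + 1) scale, and the bar is the median of its list. The medians are -1.04 for the Sox members, -0.59 for the SoxB1-linked list and 0.43 for the SoxC-linked list.

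Markers of several cell types differed between the sets, where 18.5% of all tested genes were lower and 16.5% were higher in set 2. Intermediate progenitor markers summed to 231 FPKM in Pd1CKO 2 and 233 in control 2, against 446 in Pd1CKO 1 and 460.2 in control 1, with 5 of 7 lower in set 2 (limma, adjusted p of 0.05). The 2 that did not pass were Eomes and Mfap4, with log2 fold changes of 0.12 and -0.27, so this list did not move as a block. Postmitotic neuron markers summed to 2346 FPKM in Pd1CKO 2 and 2386 in control 2, against 1294 in Pd1CKO 1 and 1800.4 in control 1, with 8 of 12 higher. Radial glia markers were split, 5 of 10 higher and 5 lower, with sums of 607 FPKM in Pd1CKO 2 and 620.0 in control 2, against 728 in Pd1CKO 1 and 773 in control 1. Markers of meninges and mesenchyme summed to 6.90 FPKM in Pd1CKO 2 and 6.52 in control 2, against 90.4 in Pd1CKO 1 and 50.9 in control 1, with 6 of 7 lower. Endothelial markers summed to 32.4 FPKM in Pd1CKO 2 and 33.2 in control 2, against 64.5 in Pd1CKO 1 and 56.0 in control 1, with 4 of 7 lower. The part of these cell types in the set difference of the Sox genes was not tested.

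Of the markers of neighbouring regions and other cell types, none passed for Pd1CKO against control in limma. Within the sets, 7613 of the 13927 genes tested were above control in set 1 and 6968 in set 2, beside which the counts of markers below stand. Diencephalon markers summed to 20.6 FPKM in Pd1CKO 1 and 13.1 in Pd1CKO 2, against 56.7 in control 1 and 15.4 in control 2. Of the 6 tested, 0 were above control in set 1 and 1 in set 2, and of the 8, Rax was listed at 0 in both libraries of set 2. Choroid plexus markers summed to 275 FPKM in Pd1CKO 1 and 341 in Pd1CKO 2, against 205 in control 1 and 21.2 in control 2, with 4 of 5 above control in set 1 and 5 of 5 in set 2. Oligodendrocyte precursor markers summed to 23.3 FPKM in Pd1CKO 1 and 13.9 in Pd1CKO 2, against 35.9 in control 1 and 14.1 in control 2, with 2 of 4 above control in each set. The meninges and endothelial markers were each above control in 7 of 7 in set 1 and 5 of 7 in set 2. The part of these regions and cell types in the within-set folds of Sox4, Sox21 and Sox9 was not tested.

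The genes whose pattern over the 4 libraries was most like that of Sox2 were Rps2, Glrx5 and Ccnd1, among 5243 protein-coding genes that averaged 10 FPKM or more. Likeness was the Euclidean distance of log2(FPKM + 1) centred on each gene's own mean, which was 0.057, 0.059 and 0.065. Ccnd1, the cyclin D1 gene of the G1 phase, had 10.5 FPKM in Pd1CKO 2 and 11.1 in control 2, against 29.5 in Pd1CKO 1 and 32.7 in control 1. For Sox11 they were Ugcg, Gpat4 and Ccdc32, at distances of 0.020, 0.021 and 0.031. With 4 libraries, such a list reflects mainly the set difference that each gene shares with the member.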

How the data were processed

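The authors' deposited FPKM values, 1 per gene and library, were used as given. The unit is not in the header and was read from the values, which became whole within 0.1 for 99.5% of entries below 200 fragments once multiplied by Gencode M21 exon length and implied depth. The submitters' processing notes name mm10, FastQC, fastp, HISAT2, TopHat, StringTie and featureCounts, without versions or roles. Genotype and set differences were fitted over all 13927 genes with limma 3.58.1 (limma-trend, R 4.3.3) on log2(FPKM + 1), each as the only term, with p-values adjusted by Benjamini and Hochberg's method and called at 0.05. The added 1 shrinks the fold changes of weakly expressed genes. The fit was tested on simulated data without a set difference, so that test does not show how the genotype fit behaves in data like these. Counting intervals rest on fragments recovered from FPKM and leave out PCR duplication and the spread between embryos, so they cover counting error only. Other pseudocounts and filters, median-ratio scaling, limma-voom, a loess correction for GC content and length, and leaving out each library were tried. Promoters are RefSeq's. Python 3.11.15, numpy 2.4.6, pandas 2.3.3, scipy 1.17.1 and matplotlib 3.10.9 were used. The members and lists were chosen with earlier results of these data known. The genes named are the members, other Sox genes, overlapping transcripts and, in each list, the 4 with the smallest genotype p and the 2 with the largest set difference. Dcx, Fabp7, Pou3f2, Eomes and Mfap4 were named after their values were seen. Some results are not reported here.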

Additional observations from a re-analysis of the deposited data

How the results depend on the processing

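With the replicate number as a block, the genotype fit called 5 genes (3 higher and 2 lower, all predicted genes or pseudogenes, Gm10020, Rpl15-ps2, Gm11585, Gm9855 and Gm10182, named after their values were seen) in place of 0, and no member. With the block and the GC and length correction it called 0. Deviations from the group means of same-numbered libraries correlated at 0.80 across genes, but with 2 pairs the numbers do not establish pairing. Without the filter, 2976 genes differed between the sets in place of 4877. Leaving out each library in turn gave 0 calls for genotype and 2614 to 6850 between the sets, with 2614 without control 2 and 2787 without Pd1CKO 2. The set difference kept its direction for all 8 members in every alternative, and the 7 calls remained. The genotype fold changes, none of them called, changed sign when a library was left out, because genotype is then partly set against number. Their log2 ranges were -0.54 to 0.44 for Sox1, -0.81 to 0.67 for Sox2, -1.46 to 1.55 for Sox3, -0.48 to 0.67 for Sox21, -0.47 to 0.59 for Sox9, -1.001 to 1.31 for Sox4, -0.21 to 0.13 for Sox11 and -0.38 to 0.31 for Sox12. With the block and the GC and length correction, the log2 fold change of Sox12 changed sign, to 0.019. In that setting it was 0.156 for Sox21, 0.141 for Sox4, 0.126 for Sox3 and 0.045 for Sox9. For Sox11 it was -0.128, for Sox2 -0.039 and for Sox1 -0.020. List medians were recomputed under alternatives chosen after the data were seen, and the median set difference kept its sign in each. Depth limits the Sox3 and Sox21 values of set 2 most.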
